A study of Drosophila melanogaster with 12 samples.

Results

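The genes described here are the metallothioneins and the copper-handling genes around them. They are the 8 genes with the FlyBase symbols *MtnA*, *MtnB*, *MtnC*, *MtnD* and *MtnE* (metallothioneins), *MTF-1* (their transcription factor), and *Ctr1A* and *Ctr1B* (copper importers). All 8 were found by FlyBase ID among the 15682 genes of the count table. They were picked by symbol, with earlier results of these data known. RNA was sequenced from heads of *Drosophila melanogaster* males aged 5 to 9 days, with pools of 200 heads per library. The mutants carried *G9a*DD1, an allele made by P-element excision that leaves no detectable G9a protein according to the methods of the study. Controls carried a precise excision of the same transposon in the same background. Oxidative stress (OS) came from food with 50 mM paraquat, a herbicide that drives the formation of superoxide in cells. The 6 groups were G9a mutants after 0, 6, or 12 h of OS and controls after the same times, with 2 libraries each and 12 in all. The 0 h flies had no paraquat. Each genotype is 1 line. Unexposed flies were not collected at 6 or 12 h, so time of collection and exposure cannot be told apart.

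Metallothioneins are small cysteine-rich proteins that bind copper, zinc and cadmium through their thiol groups, and the same thiols can react with oxidants. In flies their genes carry metal response elements, which are bound by the zinc-finger protein MTF-1 when metal accumulates. Ctr1A and Ctr1B bring copper into cells. Ctr1A is needed widely for growth, whereas Ctr1B is best known from the gut, where MTF-1 activates its gene when copper is scarce. Induction of fly metallothioneins is best studied with dietary copper and cadmium in the gut.

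Values are normalized counts, that is, reads on a gene divided by 1 size factor per library. Genes whose average over all libraries was under 10 normalized counts were not tested, which left 10530 genes in all and 6 of the 8 described here. *MtnB* and *MtnC* did not pass. Log2 values, with 1 added to each count, were tested with limma. A call needed a 1.5-fold difference or more together with a Benjamini-Hochberg adjusted p no higher than 0.05. Errors on counts are SDs of 2 libraries.

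The libraries held 19275805 to 41393992 reads assigned to genes, and those of 0 h were deeper (32325896 to 41393992) than those of 6 and 12 h (19275805 to 24253605). The *G9a* gene itself had 3551 ± 2.61 normalized counts in mutants at 0 h, against 2914 ± 246 in controls, and since the excision removes part of the gene this count does not check the labels. The 6 markers of eye photoreceptors summed to 1405160 to 1978540 normalized counts in the 12 libraries and the 5 testis markers to at most 17.9, so markers of the labelled tissue were abundant. Markers of other tissues moved with genotype and time. The 4 head fat body markers found in the table, of 5 listed, summed in mutants to 70370 to 90605 at 0 h, 22920 to 25042 at 6 h, and 8200 to 10013 at 12 h. In controls they summed to 135709 to 138079, 70734 to 90597, and 67876 to 70471. At 0 h the gap between genotypes was mostly that of *to*, at 1526 and 1730 in mutants, against 43742 and 36033 in controls. The 4 muscle markers summed in mutants to 43944 to 44742 at 0 h, 38276 to 44148 at 6 h, and 26862 to 28359 at 12 h. In controls they summed to 65072 to 65165, 59385 to 75319, and 47618 to 50959. Of the 5 glial markers, 1 was called higher (*moody*) and 1 lower (*Eaat1*) in mutants than in controls at 12 h. Of all tested genes, 9.46% were called higher and 10.2% lower in that comparison. The 4 hemocyte markers summed to 272 to 585 in mutant libraries, against 1459 to 1550 in controls at 0 h and 576 to 665 later. They did not move as 1, since *NimC1* rose in mutants from 31.7 and 29.5 at 0 h to 232 and 286 at 12 h. Controls had 87.3 and 101 for *NimC1* at 12 h. The 7 gut markers were low, at 97.8 to 286 in mutant libraries and 400.4 to 513 in control libraries, with *Jon25Bii* at 0 in all of them. Nearly all of these counts were those of *Amy-p*, at 93.9 to 273 in mutant and 395 to 508 in control libraries. Every other gut marker was at 3.61 or less in each library, and *Amy-p* was the only 1 of the 7 tested. The 6 antennal markers summed in mutants to 5982 to 6830 at 0 h, 4860 to 5103 at 6 h, and 318 to 533 at 12 h. In controls they summed to 501 to 813, 3438 to 4867, and 881 to 1059. In controls 6 of 6 were called higher at 6 h than at 0 h (5.68% of all tested genes), and 4 of 6 were lower at 12 h than at 6 h (1.94%). Per the methods of the study, heads were separated from other body parts by vortexing and sieving frozen flies. In such samples, fewer cells of a type, less RNA per cell and uneven separation of parts cannot be told apart. The part of these shifts in the results below was not tested.

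The counts of calls give the outline. In G9a mutants, *MtnA*, *MtnD* and *MtnE* rose at 6 h, so 3 of the 6 tested genes were called higher, against 8.05% of all tested genes (5.19% were called lower). At 12 h, *MtnA*, *MtnD* and *MTF-1* were higher in mutants than at 0 h, again 3 of 6, against 12.7% of all tested genes called higher and 10.3% lower. In controls, *MtnA*, *MtnD* and *MtnE* rose at 6 h (3 of 6, with 5.68% of all tested genes called higher and 1.60% lower) and were also higher at 12 h (3 of 6, with 7.31% higher and 2.86% lower). None of the 6 was called lower than at 0 h. The 6 h and 12 h comparisons of a genotype share their 0 h libraries.

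Between genotypes, *MtnA* was lower in mutants than in controls at 0 h, which is 1 of 6 called lower (5.25% of all tested genes were called lower and 5.04% higher). At 6 h, *MtnE* was lower in mutants (1 of 6, against 7.39% lower and 6.53% higher). At 12 h, *MtnD* and *MtnE* were lower in mutants and *MTF-1* was higher (2 and 1 of 6, against 10.2% lower and 9.46% higher). The response to OS itself differed between genotypes for *MtnA* at 6 h (1 of 6 with a larger log2 response in mutants, against 3.50%, and none smaller, against 4.68%). At 12 h the response of *MtnA* and *MTF-1* was larger in mutants (2 of 6, against 7.26%, and none smaller, against 8.53%). Comparisons of 12 h with 6 h were added after the values had been seen. *MtnD* and *MtnE* were lower at 12 h than at 6 h in mutants (2 of 6, against 4.69%) and *MTF-1* was higher (1 of 6, against 4.43%). In controls, *MtnD* and *MtnE* were lower at 12 h than at 6 h (2 of 6, against 1.94%) and none was higher (against 1.49%).

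**Figure D1:**
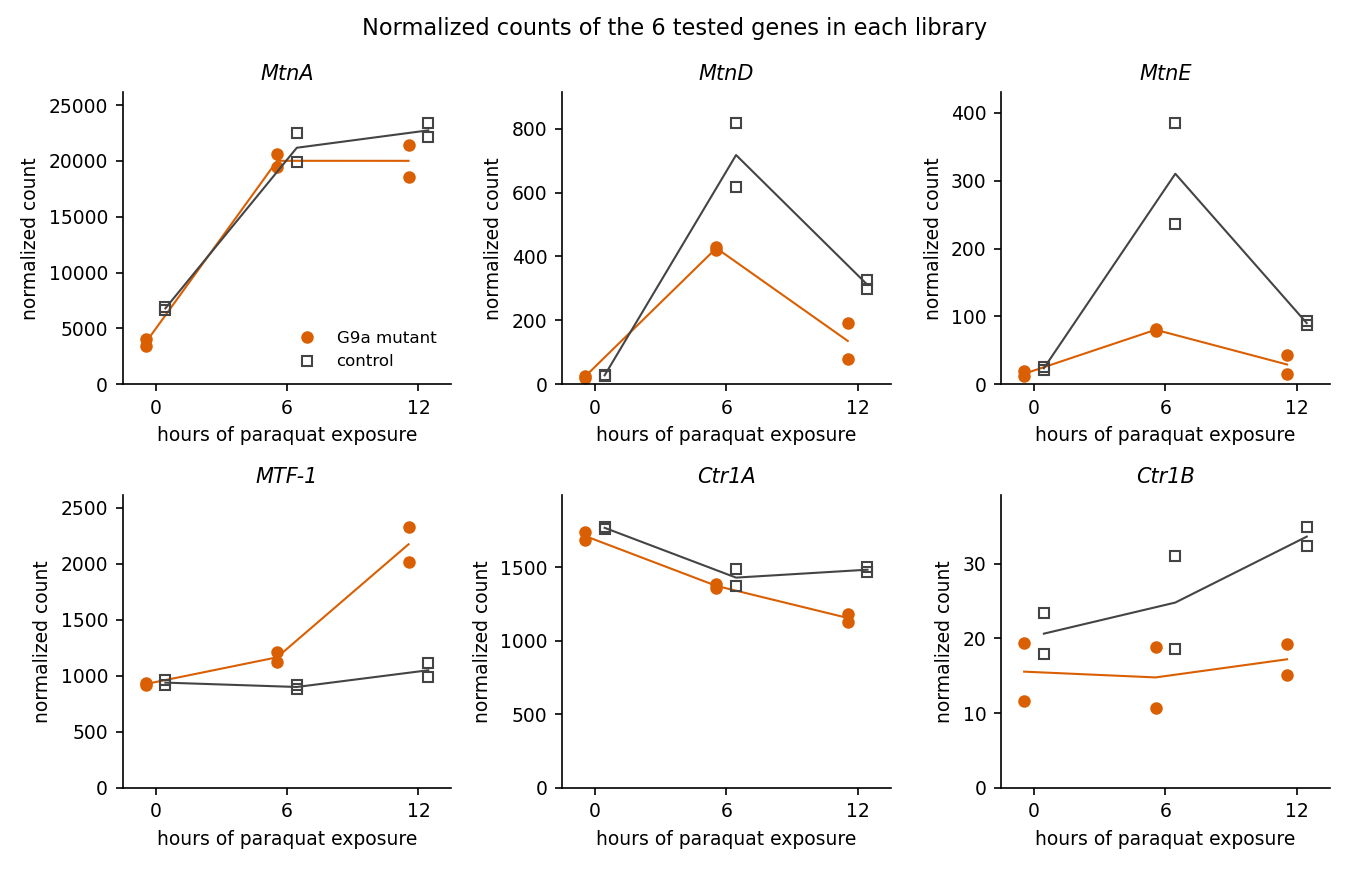
Normalized count (y axis, linear, from 0) of the 6 tested genes in each of the 12 libraries against hours of paraquat exposure (x axis). Filled orange circles are G9a mutants, drawn just left of each hour, open squares are controls, drawn just right of it, and lines join the means of 2 libraries. *MtnA* stayed high from 6 h on in both genotypes, *MtnD* and *MtnE* peaked at 6 h, and *MTF-1* was at 2018 and 2330 in the mutant libraries of 12 h but at most 1114 in any control library.

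Levels between genes can be compared per length of exon, and on that scale *MtnA* stood far above the others in every group. In mutants at 0 h, *MtnA* had 5334 ± 640 normalized counts per kb of exon, followed by *Ctr1A* with 734, *MTF-1* with 201, *MtnD* with 87.7, *MtnE* with 25.7, *Ctr1B* with 16.3 and *MtnB* with 5.79. Controls at 0 h had the same order, with 9715 ± 241 per kb for *MtnA*, 757 for *Ctr1A*, 204 for *MTF-1*, 103 for *MtnD*, 39.4 for *MtnE*, 21.6 for *Ctr1B* and 2.35 for *MtnB*. *MtnE* and *Ctr1B* overlapped in the mutant libraries of 0 h (*MtnE* from 19.3 and *Ctr1B* up to 20.4 per kb), and no neighbors in the order overlapped in the control libraries. After 6 h of OS, *MtnD* was in the place behind *MtnA* in both genotypes, with 1555 ± 25.3 per kb in mutants and 2617 ± 512 in controls. *MtnE* had 133 ± 3.02 per kb in mutants at 6 h, below *MTF-1* (253 ± 13.6). In controls at 6 h it had 514 ± 174, above *MTF-1* (196 ± 4.39) and overlapping *Ctr1A* (612 ± 34.6). At 12 h, *MtnD*, *Ctr1A* and *MTF-1* overlapped in mutants at 495 ± 287, 495 ± 16.8 and 472 ± 47.9 per kb, while in controls they stood apart at 1136 ± 73.7, 635 ± 10.6 and 228 ± 19.8. Exon lengths came from a later annotation than the one used for counting.

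**Figure D2:**
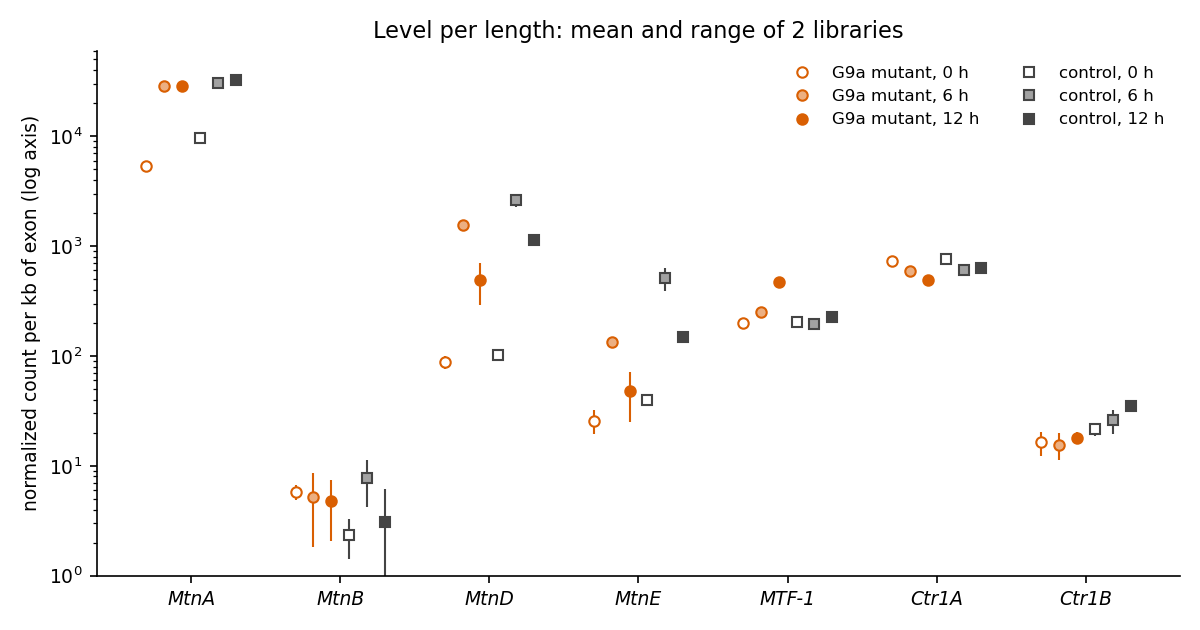
Normalized count per kb of exon (y axis, log scale) for 7 of the 8 genes in the 6 groups. Points are means of 2 libraries and vertical lines span both libraries, with mutants (orange circles) left of controls (squares) and 0, 6, and 12 h running from open to dark symbols. *MtnC* is not drawn because it had no read, and the line of *MtnB* in controls at 12 h reaches the axis because 1 library had 0. *MtnA* lies above every other gene in all groups.

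*MtnA* (FBgn0002868), the most abundant metallothionein here and the fly's main copper-induced one, rose with OS in both genotypes and began from a lower level in mutants. G9a mutants had 3417 and 4051 normalized counts at 0 h, 20593 and 19420 at 6 h, and 18597 and 21411 at 12 h. Controls had 6920 and 6681 at 0 h, 19860 and 22489 at 6 h, and 22101 and 23361 at 12 h. The exposed libraries lay above all 0 h libraries in both genotypes, and the genotypes did not overlap at 0 h but overlapped at 6 h. At 12 h both mutant libraries again lay below both control libraries. By mean count *MtnA* ranked 231 of 15682 genes.

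At 0 h the mutant level was 1.83-fold below that of controls, a log2 difference of −0.87 (SE 0.09, limma adjusted p = 3.3e-05). The rise in mutants was 5.37-fold at 6 h (log2 2.43, SE 0.09, limma adjusted p = 4.8e-09) and 5.36-fold at 12 h (log2 2.42, limma adjusted p = 1.2e-09). In controls it was 3.11-fold at 6 h (log2 1.64, limma adjusted p = 4.1e-07) and 3.34-fold at 12 h (log2 1.74, limma adjusted p = 1.2e-07). At the end points the genotypes were close. The log2 difference of mutants from controls was −0.08 at 6 h (95% interval −0.28 to 0.12, limma adjusted p = 0.54) and −0.19 at 12 h (95% interval −0.38 to 0.0092, limma adjusted p = 0.12).

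The log2 response of *MtnA* was therefore larger in mutants, by 0.79 at 6 h (SE 0.13, limma adjusted p = 0.0014) and by 0.68 at 12 h (SE 0.13, limma adjusted p = 0.0017). Both values contain the 0 h difference between the genotypes. Called lower in mutants than in controls at 0 h were also 4 of 4 hemocyte markers and 3 of 4 muscle markers. So were 1 of the 3 tested fat body markers (*to*) and the 1 gut marker tested (*Amy-p*). Called higher were 6 of 6 antennal markers and 1 of 6 eye photoreceptor markers (*ninaC*). Of all tested genes, 5.25% were called lower and 5.04% higher. The part of these markers in the 0 h difference of *MtnA* was not tested. Without mutant 0 h replicate 1 the 12 h value was 0.56, and without mutant 12 h replicate 2 it was 0.58, both under the fold threshold. Between 6 and 12 h the log2 difference was −0.0032 in mutants (95% interval −0.20 to 0.19), and it was 0.10 in controls (95% interval −0.092 to 0.30).

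*MtnD* (FBgn0053192) had few reads at 0 h and the largest fold changes of the 6 tested genes at 6 h. G9a mutants had 20.7 and 27.4 normalized counts at 0 h, 421 and 431 at 6 h, and 80.1 and 191 at 12 h. Controls had 26.1 and 30.1 at 0 h, 618 and 816 at 6 h, and 325 and 297 at 12 h. Every exposed library lay above all 4 libraries of 0 h, and every mutant library of 6 or 12 h lay below both control libraries of the same hour. These counts rest on 32 to 658 reads per library.

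The rise of *MtnD* in mutants was 17.2-fold at 6 h (log2 4.10, SE 0.31, limma adjusted p = 1.1e-06) and 5.03-fold at 12 h (log2 2.33, limma adjusted p = 6e-05). In controls it was 24.5-fold at 6 h (log2 4.61, limma adjusted p = 2.1e-06) and 10.7-fold at 12 h (log2 3.42, limma adjusted p = 8.4e-06). Mutants did not differ detectably from controls at 0 h (log2 −0.23, 95% interval −0.91 to 0.45, limma adjusted p = 0.65). At 12 h they were 2.50-fold lower (log2 −1.32, SE 0.31, limma adjusted p = 0.0046). At 6 h the log2 difference was −0.74 (SE 0.31, limma adjusted p = 0.092) and was not called, but it was called with the same value when only the 4 libraries of that comparison were fitted (limma adjusted p = 0.0033). It was also called without mutant 12 h replicate 1 (limma adjusted p = 0.0063) or replicate 2 (limma adjusted p = 0.0066).

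The mutant duplicates of 12 h lay far apart for *MtnD* (80.1 and 191), and values that use them depend on which one is kept. The 12 h response in mutants was 2.95 on the log2 scale without replicate 1 and 1.71 without replicate 2, and the difference from controls at 12 h was −0.70 and −1.94, all still called. The difference between genotypes in the 12 h response was −1.09 (SE 0.44, limma adjusted p = 0.089). It was called only without mutant 12 h replicate 2, at −1.72 (limma adjusted p = 0.00085), among the single libraries left out. The 6 h responses of the genotypes were not shown to differ (log2 −0.51, 95% interval −1.47 to 0.45).

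Between 6 and 12 h, *MtnD* fell in mutants, with a log2 difference of −1.77 (SE 0.31, limma adjusted p = 0.0014), which was −1.15 without mutant 12 h replicate 1 and −2.40 without replicate 2. In controls the log2 difference of 12 h from 6 h was −1.19 (limma adjusted p = 0.033). This control call was lost when any of the 6 libraries of mutants at 6 h, controls at 6 h or controls at 12 h was left out, with adjusted p-values of limma from 0.051 to 0.18 and log2 values from −1.39 to −0.99.

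*MtnE* (FBgn0262146), the neighbor of *MtnD* on chromosome arm 3R, followed a similar course at lower counts and with a wider gap between genotypes. The pair is annotated head to head, *MtnE* on the minus and *MtnD* on the plus strand, with no gene between them. G9a mutants had 11.7 and 19.4 normalized counts at 0 h, 81.7 and 79.1 at 6 h, and 15.1 and 43.3 at 12 h. Controls had 21.7 and 25.9 at 0 h, 236 and 385 at 6 h, and 87.3 and 93.1 at 12 h. Mutant libraries lay below control libraries at each hour, and the mutant libraries of 12 h overlapped those of 0 h. The counts rest on 14 to 310 reads per library.

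The rise of *MtnE* in mutants was 5.06-fold at 6 h (log2 2.34, SE 0.41, limma adjusted p = 0.00091). In controls the log2 rise was 3.61 at 6 h (limma adjusted p = 8.2e-05) and 1.88 at 12 h (3.69-fold, limma adjusted p = 0.0043). At 12 h in mutants the log2 difference from 0 h was 0.73 (95% interval −0.16 to 1.63, limma adjusted p = 0.15). Without mutant 12 h replicate 1 it was 1.46 and was called (limma adjusted p = 0.0046), and without replicate 2 it was 0.0059.

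Compared with controls, *MtnE* was 3.71-fold lower in mutants at 6 h (log2 −1.89, SE 0.41, limma adjusted p = 0.0038) and 3.41-fold lower at 12 h (log2 −1.77, limma adjusted p = 0.0042). The 12 h value was −1.04 without mutant 12 h replicate 1 and −2.50 without replicate 2, both called. At 0 h the log2 difference was −0.62 (95% interval −1.52 to 0.28, limma adjusted p = 0.31), so a difference before exposure was not detectable at this depth. The responses themselves were not called as different, at −1.27 for 6 h (SE 0.58, limma adjusted p = 0.19) and −1.15 for 12 h (limma adjusted p = 0.17). Without mutant 12 h replicate 2 the 12 h value was −1.88 and was called (limma adjusted p = 0.01). Of the fat body markers, 3 of 3 tested were called lower in mutants than in controls at 6 h and at 12 h. Of the muscle markers, 4 of 4 were lower at 6 h and 3 of 4 at 12 h. Of the antennal markers, 0 of 6 were lower at 6 h and 6 of 6 at 12 h. Of the hemocyte markers, 2 of 4 were lower at each hour, and *NimC1* was higher at 12 h. *Amy-p* was lower at both hours. Of the glial markers, *alrm* was higher at 6 h, and *moody* was higher and *Eaat1* lower at 12 h. Of all tested genes, 7.39% were called lower and 6.53% higher at 6 h, and 10.2% lower and 9.46% higher at 12 h. The part of these markers in the differences of *MtnD* and *MtnE* was not tested.

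Between 6 and 12 h, *MtnE* fell in both genotypes, with a log2 difference of −1.61 in mutants (limma adjusted p = 0.013) and −1.73 in controls (limma adjusted p = 0.021). The mutant call was lost without mutant 6 h replicate 1 (limma adjusted p = 0.067), mutant 6 h replicate 2 (limma adjusted p = 0.059) or mutant 12 h replicate 1 (log2 −0.88, limma adjusted p = 0.097). The control call was lost without control 6 h replicate 2 (log2 −1.38, limma adjusted p = 0.14), control 12 h replicate 1 (limma adjusted p = 0.12) or control 12 h replicate 2 (limma adjusted p = 0.09).

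**Figure D3:**
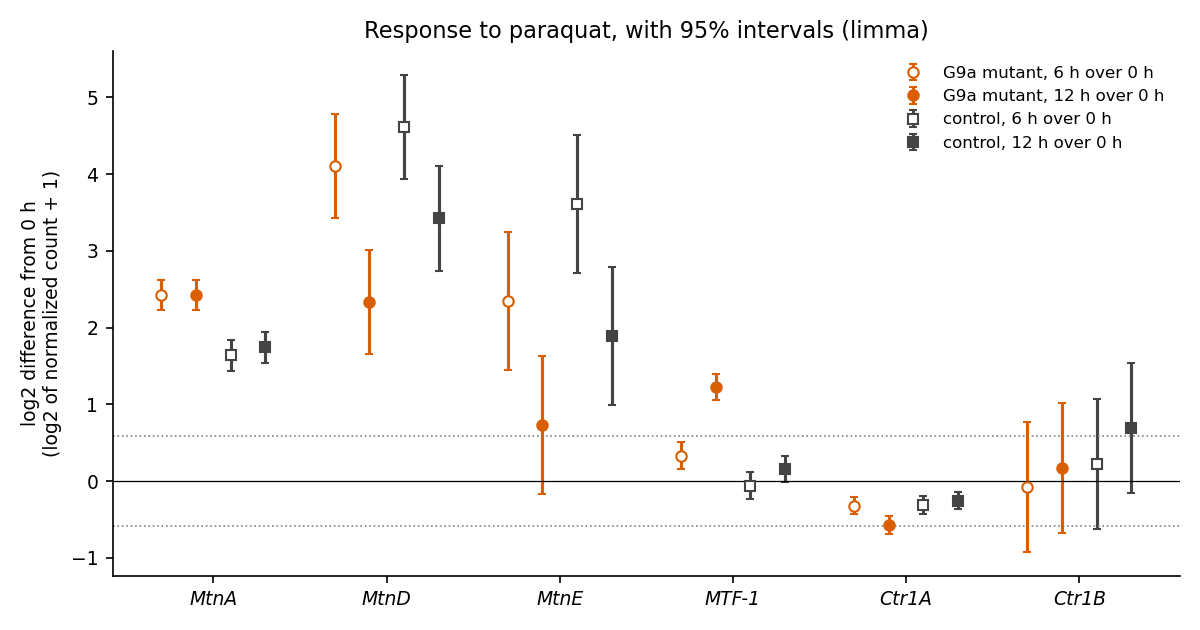
Log2 difference from 0 h (y axis, on log2 of the normalized count plus 1) of the 6 tested genes at 6 h (open symbols) and 12 h (filled symbols), in G9a mutants (orange circles) and controls (squares). Bars are 95% intervals of limma, and dotted lines mark the 1.5-fold threshold in each direction. The bars of *MtnA* in mutants lie above those in controls, *MtnD* and *MtnE* lie higher at 6 h than at 12 h, and *MTF-1* passes the threshold only in mutants at 12 h.

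The metallothionein genes contributed very unequal shares. *MtnA* made up 94.9% to 99.5% of the summed counts of the 5 metallothionein genes in every library. This sum leaves out *MtnF*, a sixth metallothionein symbol described below. At 0 h *MtnF* had more counts than *MtnD*, with 249 against 24.0 in mutants and 331 against 28.1 in controls. At 6 h its share was 97.6% and 97.4% in mutants, against 95.8% (exact Clopper-Pearson 95% interval 95.5% to 96.2%) and 94.9% (94.6% to 95.2%) in controls, where *MtnD* and *MtnE* together made up the most.

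The ratio of *MtnD* to *MtnE* counts was higher in mutants than in controls at each hour. It was 1.78 and 1.41 in mutants at 0 h, 5.15 and 5.45 at 6 h, and 5.29 and 4.42 at 12 h. In controls it was 1.21 and 1.16 at 0 h, 2.62 and 2.12 at 6 h, and 3.73 and 3.19 at 12 h. Mutant and control libraries did not overlap in this ratio at any of the 3 time points. Of the reads on the pair, the share on *MtnD* was 83.8% (exact 95% interval 79.8% to 87.2%) and 84.5% (80.9% to 87.6%) in mutants at 6 h, against 72.4% (68.7% to 75.8%) and 68.0% (64.9% to 70.9%) in controls. At 0 and 12 h the intervals of mutant and control libraries overlapped. These intervals cover counting error only, since reads copied by PCR are not independent molecules, and the ratio itself was given no test. They also leave out how reads that match more than 1 metallothionein gene were counted, which is not given in the sources used here.

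**Figure D4:**
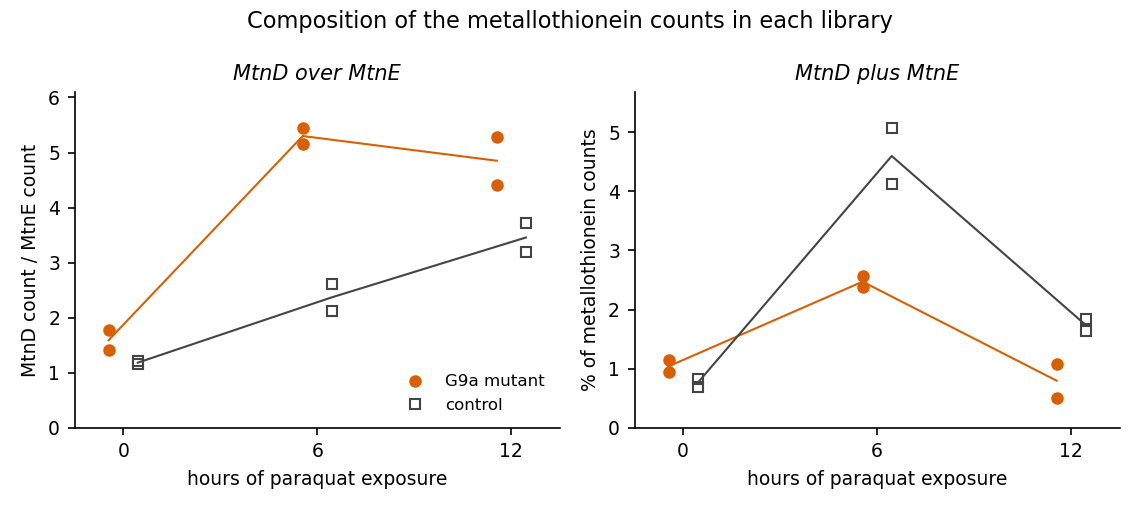
Left, ratio of the *MtnD* to the *MtnE* count (y axis) in each library against hours of paraquat exposure. Right, *MtnD* plus *MtnE* as a percentage of the summed counts of the 5 metallothionein genes, a sum that leaves out *MtnF*. Orange circles are G9a mutants, drawn left of controls (open squares), and lines join means of 2 libraries. The ratio is at least 4.42 in the 4 exposed mutant libraries and at most 3.73 in the 4 exposed control libraries.

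*MtnB* (FBgn0002869), known for its response to cadmium, was close to the limit of detection. It had 34 reads over the 12 libraries, at most 6 in a library and 0 in 1 control library of 12 h. Normalized counts were 2.88 and 3.88 in mutants and at most 1.91 in controls at 0 h, and none of the 12 values was above 6.63. No read fell on *MtnC* (FBgn0038790) in any library. That is 0 of 327164803 reads, for which a limit of 3 reads allows a level of up to 0.00917 CPM over the 12 libraries. Neither gene was tested, so nothing can be said of a response to OS. *MtnB*, *MtnC*, *MtnD* and *MtnE* belong to a group of similar genes. How reads of 30 bases that match more than 1 of them were counted is not given in the sources used here, so low values of *MtnB* and *MtnC* are uncertain. The counts of *MtnD* and *MtnE*, and their ratio, may be affected too. A sixth metallothionein symbol in the table, *MtnF* (FBgn0262858), lies outside the 8 genes. It had 249 ± 4.64 normalized counts in mutants at 0 h and 195 ± 24.0 at 12 h, against 331 ± 21.8 and 227 ± 19.8 in controls, and was not called in any comparison.

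*MTF-1* (FBgn0040305), the transcription factor that acts on metallothionein genes, rose in mutants by 12 h and was not called at either time in controls. G9a mutants had 932 and 921 normalized counts at 0 h, 1209 and 1121 at 6 h, and 2018 and 2330 at 12 h. Controls had 963 and 915 at 0 h, 886 and 914 at 6 h, and 1114 and 985 at 12 h. The mutant libraries of 12 h lay far above all others, those of 6 h lay above every control library, and the genotypes overlapped at 0 h.

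At 12 h the level in mutants was 2.34-fold that at 0 h (log2 1.23, SE 0.08, limma adjusted p = 1.2e-07) and 2.07-fold that of controls (log2 1.05, limma adjusted p = 7.8e-07). In controls the log2 difference of 12 h from 0 h was 0.16 (95% interval −0.016 to 0.33, limma adjusted p = 0.16). The 12 h response was larger in mutants by 1.07 on the log2 scale (SE 0.11, limma adjusted p = 2.7e-05). At 6 h mutants differed from their 0 h level by 0.33 (limma adjusted p = 0.0068) and from controls by 0.37 (limma adjusted p = 0.0035), both under the fold threshold. The mutant rise between 6 and 12 h was 1.86-fold (log2 0.90, limma adjusted p = 1e-05). In mutants *MTF-1* was thus highest at 12 h. At that time *MtnA* did not differ detectably from its 6 h level (log2 −0.0032, 95% interval −0.20 to 0.19), and *MtnD* and *MtnE* were below theirs. These are RNA counts, and the activity of the MTF-1 protein was not measured.

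The annotation places 3 genes over *MTF-1*. Of these, *CG42526* and *Bet3* on the opposite strand are in the table, and *asRNA:CR45872* was not analysed here. The library kit did not mark strand, so reads from overlapping parts cannot be told apart. *CG42526* had 171 and 178 normalized counts in mutants at 12 h and *Bet3* had 798 and 801. *Bet3* was at 876 and 835 in mutants at 0 h, and was not called in any comparison. The log2 difference of mutants from controls at 12 h was 0.48 for *CG42526* (limma adjusted p = 0.011) and 0.15 for *Bet3* (limma adjusted p = 0.1), neither called. At 6 h, *CG42526* was called higher in mutants than in controls (log2 0.66, limma adjusted p = 0.0022).

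*Ctr1A* (FBgn0062413), the widely needed importer, was lower after OS in both genotypes by less than 1.5-fold. G9a mutants had 1741 and 1682 normalized counts at 0 h, 1360 and 1384 at 6 h, and 1126 and 1182 at 12 h. Controls had 1760 and 1773 at 0 h, 1485 and 1371 at 6 h, and 1464 and 1499 at 12 h. All exposed libraries lay below all 0 h libraries, and the mutant libraries of 12 h lay below all others.

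The log2 difference of *Ctr1A* from 0 h in mutants was −0.32 at 6 h (SE 0.05, limma adjusted p = 0.00062) and −0.57 at 12 h (limma adjusted p = 2.9e-06). In controls it was −0.31 at 6 h (limma adjusted p = 0.0015) and −0.25 at 12 h (limma adjusted p = 0.0034). Mutants differed from controls by −0.36 at 12 h (limma adjusted p = 0.00016), and the 12 h response differed by −0.32 (limma adjusted p = 0.008). None of these reached the fold threshold, although the 12 h value in mutants did without mutant 0 h replicate 2 (−0.59) or mutant 12 h replicate 2 (−0.60). At 6 h the genotypes overlapped, with a log2 difference of −0.057 (95% interval −0.17 to 0.059).

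*Ctr1B* (FBgn0062412), the importer known from copper scarcity, was low throughout, at 10 to 30 reads per library. G9a mutants had 11.7 and 19.4 normalized counts at 0 h, 18.9 and 10.7 at 6 h, and 15.1 and 19.3 at 12 h. Controls had 17.9 and 23.4 at 0 h, 18.6 and 31.0 at 6 h, and 32.3 and 34.9 at 12 h. Mutants and controls overlapped at 0 and 6 h but not at 12 h. No comparison was called. The log2 difference from 0 h at 12 h was 0.17 in mutants (95% interval −0.67 to 1.01) and 0.69 in controls (95% interval −0.15 to 1.53). That of mutants from controls at 12 h was −0.94 (SE 0.38, limma adjusted p = 0.07), and it was called when only the 4 libraries of the comparison were fitted (limma adjusted p = 0.044). *Ctr1B* is annotated as overlapping *lncRNA:CR45215*, which was not analysed here, and *Poxm* on the opposite strand. *Poxm* had 19.5 and 14.4 normalized counts in mutants and 33.5 and 24.4 in controls at 12 h.

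Over the 12 libraries, which share groups and depths, the log2 counts of *MtnD* and *MtnE* had a Pearson r of 0.91, those of *MtnA* and *MtnD* 0.90, and those of *MtnA* and *MtnE* 0.72. *MTF-1* had r = 0.40 with *MtnA*, 0.082 with *MtnD* and −0.24 with *MtnE*. *Ctr1A* had r = −0.82 with *MTF-1* and −0.76 with *MtnA*. These values describe 12 libraries in 6 groups and carry no test. By the same measure over all tested genes, the 3 genes outside the list most like *MtnA* were *CG8206* (r = 0.99), *Cyp309a1*, a cytochrome P450 (0.99), and *CG33110* (0.99). For *MtnD* they were FBgn0038347, which has no symbol here (0.97), *CG3226* (0.96) and *CG15203* (0.96). For *MtnE* they were *ida* (0.96), *CG34398* (0.94) and *CLIP-190* (0.94). *MTF-1* was closest to *cnn*, a centrosome component (0.99), FBgn0261548 (0.99) and *CG8679* (0.99). *Ctr1A* was closest to *Pgant5*, which adds sugars to proteins (0.97), *Rgl* (0.97) and *CG14687* (0.97). *Ctr1B* was too low for this comparison, which took only members averaging 50 normalized counts or more.

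*Cyp309a1* shows what such likeness looks like in counts. It had 188 and 245 normalized counts in mutants at 0 h, 4128 and 3834 at 6 h, and 3578 and 4361 at 12 h. In controls it had 719 and 629 at 0 h, 2604 and 3387 at 6 h, and 3872 and 3919 at 12 h. As with *MtnA*, the mutants were lower at 0 h and the genotypes lay close together by 12 h. The gene closest to *MTF-1*, *cnn*, had 5017 and 5397 in mutants at 12 h and between 3048 and 3759 in the other 10 libraries.

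A list of other copper-handling genes held 15 genes, of which 12 were in the table and 11 were tested. *Cox19*, *stw* and *Phm* were not analysed here, and the importer *Ctr1C* had no read. At 6 h, 0 of 11 were called in mutants (8.05% of all tested genes were called higher and 5.19% lower), and 1 was higher in controls (5.68% and 1.60%). At 12 h, 1 was higher and 1 lower in mutants (12.7% and 10.3%), and 1 was higher in controls (7.31% and 2.86%). These counts are too close to the shares over all tested genes to be read as a result about the list. The median log2 difference of the 11 genes at 12 h was −0.12 in mutants and −0.0088 in controls, beside −0.0082 and 0.0046 over all tested genes. Not called in any comparison were the exporter *ATP7*, the chaperones *Atox1* and *Ccs*, and the copper-zinc enzyme *Sod1*.

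The 2 copper genes that passed were enzymes. *Sod3*, an extracellular superoxide dismutase that uses copper and zinc, had 1636 and 1780 normalized counts in mutants at 0 h, 1285 and 1115 at 6 h, and 829 and 916 at 12 h. Controls had 1315 and 1292 at 0 h, 1085 and 1161 at 6 h, and 1029 and 1107 at 12 h. *Sod3* fell in mutants at 12 h, with a log2 difference of −0.97 from 0 h (SE 0.08, limma adjusted p = 1e-06), and the 12 h response differed between genotypes by −0.68 (limma adjusted p = 0.00082). That value contains a 0 h log2 difference of 0.39 (limma adjusted p = 0.0041), which was under the fold threshold. *Mco1*, a multicopper oxidase, was at 129 and 93.9 in mutants and at 184 and 170 in controls at 12 h. Its log2 rise at 12 h was 0.73 in mutants (limma adjusted p = 0.0056) and 1.80 in controls (limma adjusted p = 2.2e-05), and the response was smaller in mutants (log2 −1.07, limma adjusted p = 0.009).

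Zinc transporters move another metal that metallothioneins bind, and they formed a list of 17 genes, all in the table and 15 of them tested. In mutants, 1 was higher and 1 lower at 6 h, where 8.05% of all tested genes were called higher and 5.19% lower, and 2 were higher and 1 lower at 12 h (12.7% and 10.3%). In controls, 1 was higher at 6 h (5.68% of all tested genes) and 1 at 12 h (7.31%). These counts, too, lie near the shares over all tested genes. The median log2 difference at 12 h was −0.031 in mutants and 0.0073 in controls, beside −0.0082 and 0.0046 over all tested genes. *Zip99C*, known for moving iron into the secretory pathway, rose in both genotypes at 12 h, by 0.92 in mutants (limma adjusted p = 6.6e-07) and 0.73 in controls (limma adjusted p = 1.7e-05) on the log2 scale. *Zip71B* had 371 and 385 normalized counts in mutants at 12 h, against 216 and 256 at 0 h (log2 0.69, limma adjusted p = 0.00019). *Zip89B* had 182 and 179 in mutants at 12 h, against 328 and 329 at 0 h (log2 −0.86, limma adjusted p = 7.2e-05), and its 12 h response differed between genotypes by −1.18 (limma adjusted p = 0.00024). That value contains a 0 h difference, since controls had 207 and 197 at 0 h and mutants were called higher there (log2 0.70, limma adjusted p = 0.0011). At 12 h controls had 279 and 228. *ZnT33D* differed by genotype at every hour, with 45.3 and 36.7 in mutants and 276 and 262 in controls at 0 h (log2 −2.69, SE 0.19, limma adjusted p = 2.1e-06).

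The last list held 5 genes outside the 8 that are described as metal-responsive, and 4 of the 5 were called higher in mutants at 12 h (12.7% of all tested genes), while 2 were in controls (7.31%). At 6 h, 2 of 5 were called higher in mutants (8.05%) and 2 of 5 in controls (5.68%). The median log2 difference at 12 h was 1.24 in mutants and 0.049 in controls, beside −0.0082 and 0.0046 over all tested genes. The ferritin subunits that store iron moved together. *Fer1HCH* had 11497 and 12215 normalized counts in mutants at 0 h, 33683 and 32338 at 6 h, and 33053 and 36296 at 12 h. Controls had 13685 and 13428 at 0 h, 25770 and 27241 at 6 h, and 25462 and 25910 at 12 h. The log2 rise at 12 h was 1.55 in mutants (limma adjusted p = 1e-09) and 0.92 in controls (limma adjusted p = 4e-07), a difference of 0.63 (SE 0.08, limma adjusted p = 0.00011). *Fer2LCH* rose by 1.24 in mutants (limma adjusted p = 1.9e-08) and 0.88 in controls (limma adjusted p = 1.5e-06).

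*Mvl*, a divalent metal transporter of the NRAMP family, had a course like that of *MTF-1*. Mutants had 2024 and 2057 normalized counts at 0 h, 2629 and 2478 at 6 h, and 4291 and 5029 at 12 h. Controls stayed between 1598 and 1778 in all 6 libraries. The 12 h response was larger in mutants by 1.14 on the log2 scale (SE 0.10, limma adjusted p = 8.6e-06). *CG10505*, an ABC transporter, was at 0.647 and 2.16 normalized counts in mutants and 70.1 and 70.2 in controls at 0 h. Its call in mutants at 12 h rests on 11.9 and 4.81 normalized counts there, and mutants lay below controls at 6 and 12 h too. The zinc exporter *ZnT35C* was not called in any comparison.

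**Figure D5:**
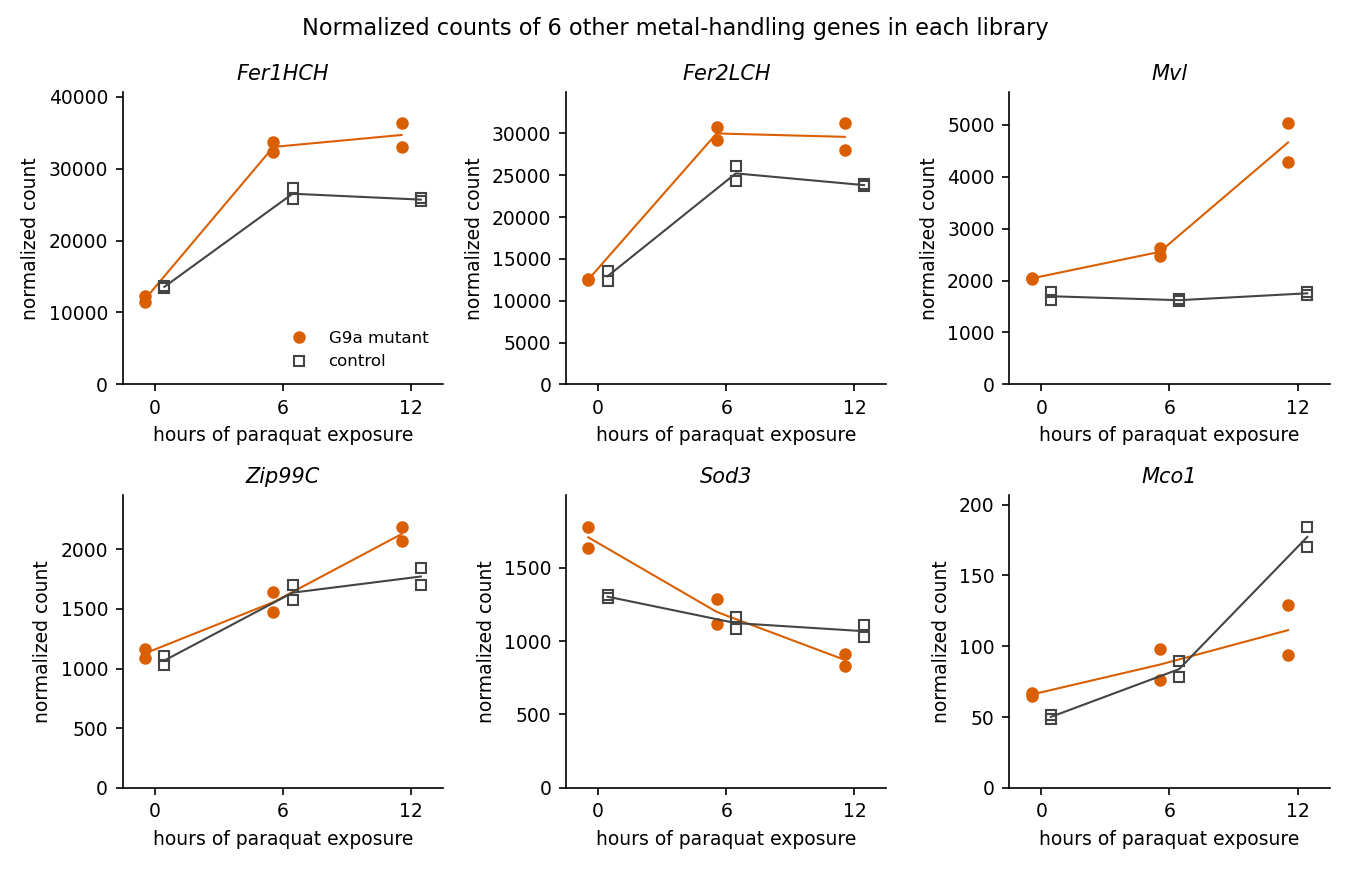
Normalized count (y axis, linear, from 0) of 6 other metal-handling genes in each library against hours of paraquat exposure. Orange circles are G9a mutants, drawn left of controls (open squares), and lines join means of 2 libraries. *Mvl* is at 4291 and 5029 in the mutant libraries of 12 h and at most 1778 in every control library, *Fer1HCH* and *Fer2LCH* rose in both genotypes, and *Sod3* was at most 916 in mutants and at least 1029 in controls at 12 h.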

How the data were processed

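Per the study's methods, BWA placed single-end reads of 30 bp on the BDGP 5 genome, HTSeq counted them by gene, and the authors divided the counts by DESeq size factors (versions not given in the sources used here). The deposited table therefore holds normalized counts (unit: signal) for 15682 genes in 12 libraries. Dividing each of the 188184 values by the worth of 1 read in its library gave whole reads (100.0% within 0.01 reads), so counts of reads could be recovered. The authors' 4 further tables, of comparisons between time points, hold mean counts, fold changes and p-values for genes past their thresholds and were not used.

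Symbols matched 15002 IDs. Exon lengths and neighbors came from Ensembl release 115 on BDGP 6, so no coordinates or sequences are given. The limma model (version 3.58.1, under R 4.3.3) took log2(normalized count + 1) with 1 mean per group and no block, leaving 6 residual degrees of freedom, and moderated variances with a trend. The steps were also run on simulated counts in which only mutants at 12 h were changed, and no result here rests on that run. With 2 libraries a group, 0.333 is the smallest p of an exact permutation test, and no such test is given. Other settings tried were pseudocounts of 0.5 and 5, a minimum mean of 50 and none, TMM scaling, a fit of the compared libraries alone, a block for the replicate number, leaving out each library, and tests of the recovered reads with edgeR 4.0.16 and DESeq2 1.42.0. Named genes are the 8 genes, at most 6 called genes of each list, and the 3 genes with the highest Pearson r to each member with a mean of at least 50. *MtnF*, overlapping genes and genes named as not called were added. The 8 genes and all lists were chosen with earlier results of these data known. Duplicates differed beyond sampling noise (chi-square per degree of freedom 4.33 to 19.0) and are separate pools, so p-values measure the spread between pools.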

Additional observations from a re-analysis of the deposited data

Results flagged for a closer look

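The genotypes differed in the log2 response of *MtnA* to OS, larger in G9a mutants by 0.79 at 6 h (SE 0.13, limma adjusted p = 0.0014) and by 0.68 at 12 h (SE 0.13, limma adjusted p = 0.0017). Both values contain the lower level of *MtnA* in mutants at 0 h (log2 −0.87 from controls). Without mutant 0 h replicate 1 the 12 h value was 0.56, and without mutant 12 h replicate 2 it was 0.58. They also differed in the 12 h response of *MTF-1*, larger in mutants by 1.07 (SE 0.11, limma adjusted p = 2.7e-05), with both mutant libraries of 12 h above all others. In each case a test of the difference between the 2 responses picked the result out, and what it comes from was not tested.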

How the results depend on the processing

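Of the 66 log2 differences of the 6 tested genes in 11 comparisons, 66 kept their direction and their side of the thresholds with a pseudocount of 0.5 or 5, with TMM scaling, with edgeR and with DESeq2, as did the 55 that a mean of at least 50 left (*Ctr1B* then has no value). With only the libraries of the comparison, 2 genes were called between mutants and controls at 6 h in place of 1, with *MtnD* added, and *Ctr1B* was added at 12 h. With no minimum count, 1 gene was called between controls at 12 and 6 h in place of 2, because *MtnD* had a limma adjusted p of 0.051. Leaving out each library in turn leaves 1 library in a group. The number of called genes then changed between genotypes at 6 h and for the difference of the 12 h responses. It also changed between mutants at 12 and 0 h, between mutants at 12 and 6 h, and between controls at 12 and 6 h.

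Some values that were not called changed sign with a library left out. *Ctr1B* ranged from −0.46 to 0.30 (mutants, 6 h from 0 h), −0.18 to 0.52 (mutants, 12 h from 0 h), −0.13 to 0.58 (controls, 6 h from 0 h), −0.68 to 0.082 (difference of the 6 h responses) and −0.13 to 0.63 (mutants, 12 h from 6 h). *MtnA* ranged from −0.17 to 0.010 (genotypes at 6 h) and −0.10 to 0.098 (mutants, 12 h from 6 h). *Ctr1A* ranged from −0.11 to 0.00095 (genotypes at 6 h), −0.069 to 0.047 (difference of the 6 h responses) and −0.0033 to 0.11 (controls, 12 h from 6 h), and *MTF-1* from −0.056 to 0.017 (genotypes at 0 h). The causes were not tested.

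The labels number the duplicates 1 and 2 but do not say that a number marks a shared batch, and the differences between duplicates correlated from −0.57 to 0.45 over the 15 pairs of groups, with 6 above 0.1. With the number as a block, the difference of the 12 h responses of *MtnD* was called (log2 −1.09, limma adjusted p = 0.05), which gave 3 genes in place of 2, and no other call of the 6 genes changed. *MtnB* had 34 reads and *Ctr1B* 252 over the 12 libraries, and with 2 pools per group the intervals are wide.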
